A study of Mus musculus with 6 samples.

Results

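The corticosteroid response of the mouse kidney after ischemia-reperfusion injury (IRI) is described through 10 genes: *Tsc22d3*, *Fkbp5*, *Sgk1*, *Zbtb16*, *Klf9*, *Nr3c1*, *Nr3c2*, *Hsd11b2*, *Mt1* and *Mt2*. They were chosen by name, with their fold changes between the groups already known, and all 10 were found once each among the 21367 genes of the deposited table and were among the 13036 genes tested. Their differences between the groups are therefore given as descriptions, and where calls from a fit across all genes are counted for them, nothing is read from the count. The comparison asks how a partial loss of SHP-1 changes the injured kidney, with 3 *Ptpn6*+/mev mice set against 3 wild-type littermates, all 7 weeks old and on a C57BL/6 background, and 1 mRNA library per mouse. *Ptpn6*+/mev mice carry 1 viable motheaten allele of *Ptpn6*, the gene of the tyrosine phosphatase SHP-1, in every cell, and the labels call this genotype a SHP1 knockdown. All mice lost the right kidney, had blood flow to the remaining one stopped by a clamp for 34 min, and gave that kidney 24 h later, and no sham-operated kidney was analysed here. Pentobarbital anesthesia and heparin were also common to both groups, and the whole kidney was used, so fewer cells of a type and less RNA per cell cannot be told apart.

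Corticosterone, the main glucocorticoid of the mouse, binds the glucocorticoid receptor, which then enters the nucleus and activates genes through the glucocorticoid response element. Aldosterone acts through the closely related mineralocorticoid receptor, mainly in the distal nephron and collecting duct, where it promotes sodium reabsorption. Because corticosterone also binds the mineralocorticoid receptor, the enzyme encoded by *Hsd11b2* inactivates it in these segments. *Tsc22d3*, *Fkbp5*, *Sgk1*, *Zbtb16* and *Klf9* are known targets of activated receptor, and metallothioneins are induced by glucocorticoids as well as by zinc through the factor MTF1.

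Promoter windows from RefSeq on GRCm38.p6, 250 bases before and 50 after a transcript start, were matched for 7 of the 10 genes: *Tsc22d3*, *Fkbp5*, *Sgk1*, *Klf9*, *Nr3c2*, *Mt1* and *Mt2*. The palindromic glucocorticoid response element was searched on both strands as AGAACA, 3 free bases and TGTTCT. It was found without a mismatch in 1 of the 6 windows of *Sgk1*, 189 bases before that start, and 3 of the 32851 windows in the table, 0.00913%, held such a match. Another *Sgk1* window held a match with 2 mismatches in the 12 fixed bases, which 1.84% of all windows reach. The windows of the other 6 genes held none at that limit. Both *Sgk1* sites are shown because no other window of the 7 genes held so close a match, with the 15 bases of the element in capitals, on the plus strand of chromosome 10 at 21993701 to 21993715 and at 21985921 to 21985935.
Sgk1 full match: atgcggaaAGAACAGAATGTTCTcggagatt
Sgk1 match with 2 mismatches: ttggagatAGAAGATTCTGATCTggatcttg

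The metal response core, TGCACNC or TGCGCNC on either strand, was present 3 times in the *Mt1* window and 4 times in the *Mt2* window. Of all windows, 25.7% held at least 1 such core, 1.97% at least 3 and 0.517% at least 4. The windows are printed whole because this pair of neighbouring genes is described together, with each core in capitals, and cores of the minus strand appear as their reverse complement. They lie on the plus strand at chr8:94178839-94179138 and chr8:94172368-94172667.
Mt1: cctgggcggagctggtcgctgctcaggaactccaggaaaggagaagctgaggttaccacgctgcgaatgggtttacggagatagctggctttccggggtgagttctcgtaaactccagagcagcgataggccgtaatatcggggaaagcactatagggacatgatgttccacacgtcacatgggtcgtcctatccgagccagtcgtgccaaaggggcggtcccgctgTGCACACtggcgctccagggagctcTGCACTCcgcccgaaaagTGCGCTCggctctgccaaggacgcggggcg
Mt2: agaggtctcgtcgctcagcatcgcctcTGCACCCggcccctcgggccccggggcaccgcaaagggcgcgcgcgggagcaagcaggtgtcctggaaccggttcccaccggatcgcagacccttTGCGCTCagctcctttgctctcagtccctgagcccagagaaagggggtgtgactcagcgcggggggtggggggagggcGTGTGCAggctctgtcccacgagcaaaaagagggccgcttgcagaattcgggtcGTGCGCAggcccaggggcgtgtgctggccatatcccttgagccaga

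The 6 libraries held between 10271590 and 12361745 counts. Wild-type replicate 2 stood apart. The 10 top genes held 12.6% of all counts there and 9.21% to 10.9% elsewhere. Its summed FPKM over 5 endothelial markers was 51.7, against 116 to 123 elsewhere, and over 5 fibroblast markers 32.4, against 102 to 172. Its FPKM of *Aqp2*, the water channel of collecting duct principal cells, was 431, against 122 to 228. *Ptpn6* itself averaged 13.4 ± 1.42 FPKM in the heterozygous and 14.6 ± 3.38 FPKM in the wild-type mice (SD, n = 3 each), and the mev allele changes splicing, so its level does not check the genotype. Proximal tubule markers were present in every library, with a summed FPKM of 491 to 856 over 8 genes.

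The 5 targets of activated receptor shared 1 pattern. *Ptpn6*+/mev replicates 1 and 3 were high, and *Ptpn6*+/mev replicate 2 lay close to the wild-type mean. In these 5 genes replicate 1 exceeded replicate 2 by 1.72-fold to 2.74-fold and replicate 3 exceeded it by 1.39-fold to 2.52-fold. The ratio of replicate 2 to the wild-type mean lay between 0.92 and 1.17. Levels are in FPKM, fragment counts scaled to transcript length and to the library total, and log2 fold changes, *Ptpn6*+/mev minus wild-type, come from the edgeR fit to the counts of all tested genes.

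*Tsc22d3* encodes GILZ, a leucine zipper protein that carries much of the anti-inflammatory action of glucocorticoids, and lies on chromosome X from 140539528 to 140600659. In *Ptpn6*+/mev mice 1, 2 and 3 FPKM stood at 41.6, 23.15 and 45.4, and wild-type mice 1, 2 and 3 had 23.02, 20.6 and 17.3. All 3 *Ptpn6*+/mev values were above all wild-type values, but the lowest of them, replicate 2, was nearly level with wild-type replicate 1. On counts scaled to the library total with TMM, edgeR's correction for library composition (TMM-scaled CPM), these 2 libraries changed places, at 43.78 and 43.83. The log2 fold change was 0.79 (standard error 0.24).

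*Zbtb16* encodes the transcription factor PLZF and lies on chromosome 9 from 48654297 to 48836222. Values of 8.81, 3.21 and 8.09 FPKM were measured in *Ptpn6*+/mev mice 1, 2 and 3, with 3.31, 2.13 and 2.80 for the respective wild-type mice, from 113 to 427 counts per library. Replicate 2 of *Ptpn6*+/mev fell within the wild-type range in FPKM, while on TMM-scaled CPM it was above it, at 15.1 against a highest wild-type value of 13.6. Among the 10 genes *Zbtb16* had the largest log2 fold change, 1.27 (standard error 0.33). It was 1.59 (standard error 0.16) without *Ptpn6*+/mev replicate 2 and 0.99 (standard error 0.33) without *Ptpn6*+/mev replicate 1.

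*Sgk1* encodes a kinase that raises the number of epithelial sodium channels at the cell surface, and lies on chromosome 10 from 21882184 to 21999903. The *Ptpn6*+/mev libraries, in order of their number, held 90.6, 52.0 and 83.6 FPKM, and the wild-type libraries 38.65, 60.2 and 45.2. Wild-type replicate 2 was above *Ptpn6*+/mev replicate 2, so the groups overlapped by this 1 pair. The log2 fold change was 0.56 (standard error 0.23). It was 0.78 (standard error 0.19) without wild-type replicate 2 and 0.41 (standard error 0.25) without *Ptpn6*+/mev replicate 1.

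*Fkbp5* encodes FKBP51, a co-chaperone that lowers the hormone affinity of the glucocorticoid receptor and so forms a feedback loop, and lies on chromosome 17 from 28399094 to 28517527. In *Ptpn6*+/mev mice 1, 2 and 3 FPKM stood at 89.4, 50.6 and 70.6, and wild-type mice 1, 2 and 3 had 48.3, 72.7 and 44.95. Wild-type replicate 2 ranked second of the 6, above 2 of the 3 *Ptpn6*+/mev mice. The log2 fold change of 0.26 was about as large as its standard error of 0.26, and leaving out *Ptpn6*+/mev replicate 1 gave 0.05, while leaving out wild-type replicate 2 gave 0.55.

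*Klf9* encodes a zinc finger factor that represses further transcription in many tissues, and lies on chromosome 19 from 23141226 to 23168134. Values of 29.1, 16.95 and 24.2 FPKM were measured in *Ptpn6*+/mev mice 1, 2 and 3, with 19.5, 16.92 and 18.4 for the respective wild-type mice. The wild-type mice were close together and *Ptpn6*+/mev replicate 2 lay among them in FPKM. On TMM-scaled CPM it was below all of them, at 54.4 against 59.6 to 64.1. The log2 fold change was 0.29 (standard error 0.18), with a range from 0.10 without *Ptpn6*+/mev replicate 1 to 0.47 without *Ptpn6*+/mev replicate 2.

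**Figure D1:**
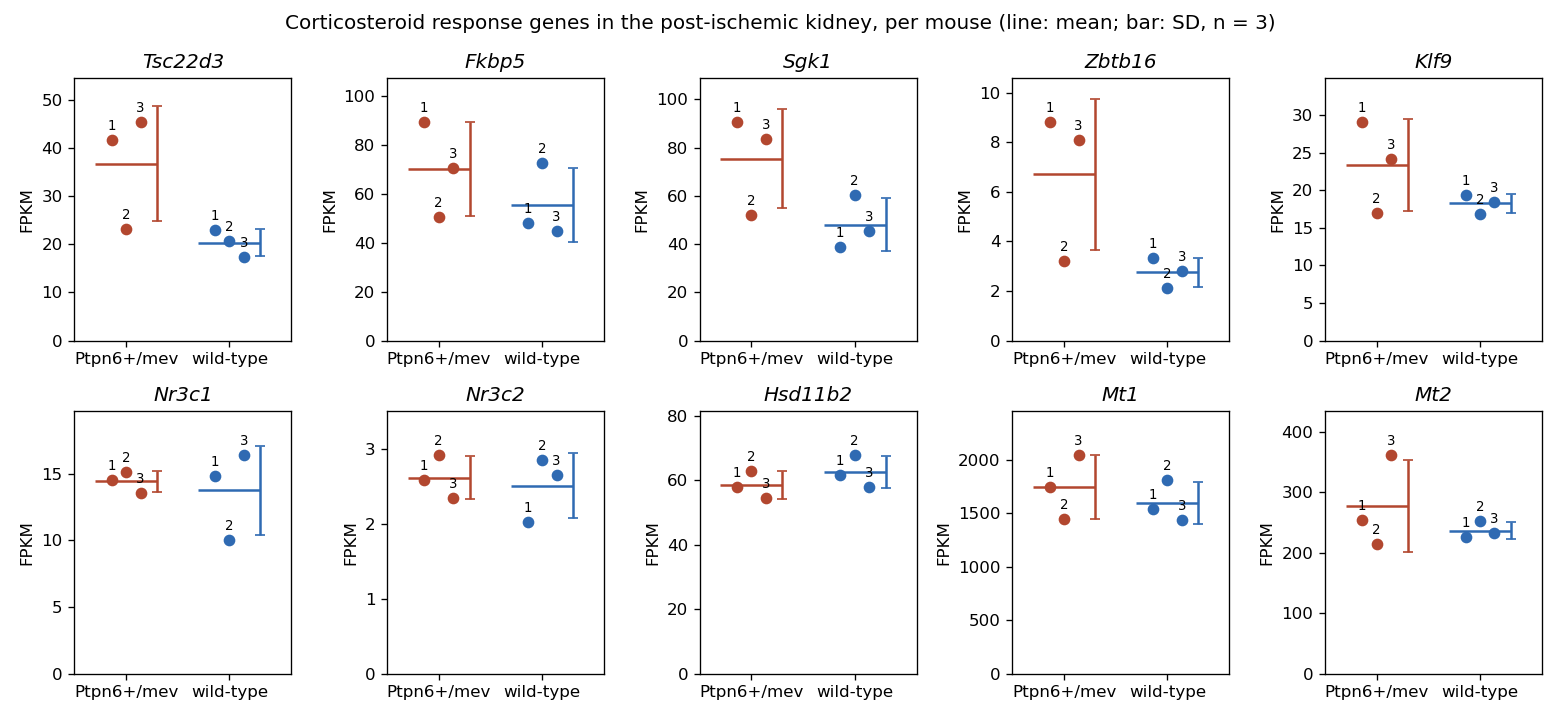
FPKM of the 10 genes in each mouse, with the replicate number above each point, a line at the group mean and a bar of 1 SD (n = 3), on axes that start at 0. In the upper row *Ptpn6*+/mev mice 1 and 3 are above mouse 2 in all 5 targets, and in the lower row the receptors and *Hsd11b2* show no such split.

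The receptors did not follow this pattern. *Nr3c1*, the glucocorticoid receptor gene on chromosome 18 from 39410545 to 39519421, stood at 14.5, 15.2 and 13.6 FPKM across *Ptpn6*+/mev mice 1, 2 and 3, and at 14.8, 9.99 and 16.4 across wild-type mice 1, 2 and 3. The *Ptpn6*+/mev values lay inside the wild-type range, whose low end was wild-type replicate 2. The log2 fold change was 0.04 (standard error 0.11), and -0.06 (standard error 0.09) without wild-type replicate 2.

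*Nr3c2*, the mineralocorticoid receptor gene on chromosome 8 from 76899442 to 77245012, was the least abundant of the 10, with 123 to 189 counts per library. The *Ptpn6*+/mev libraries, in order of their number, held 2.59, 2.92 and 2.35 FPKM, and the wild-type libraries 2.03, 2.85 and 2.66. The groups overlapped, and the means of 2.62 ± 0.29 and 2.51 ± 0.43 (SD, n = 3 each) differed by less than the spread between mice. Its log2 fold change of -0.08 (standard error 0.17) has the opposite sign to the difference in mean FPKM, and it lay between -0.21 and -0.02 when single libraries were left out, the extremes coming without wild-type replicates 1 and 2. The length implied by counts and FPKM together was not constant for this gene, at 4959 to 5748 bases depending on the library, a ratio of 1.16. That ratio was 1.18 for both *Nr3c1* and *Zbtb16*, and at most 1.03 for the other 7 genes. *Nr3c1* was 5.52 ± 0.30 times as abundant as *Nr3c2* per length in *Ptpn6*+/mev and 5.66 ± 1.95 times in wild-type mice (SD, n = 3 each).

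*Hsd11b2*, on chromosome 8 from 105518755 to 105523988, encodes the enzyme that converts corticosterone to its inactive form in aldosterone target cells. In *Ptpn6*+/mev mice 1, 2 and 3 FPKM stood at 57.8, 62.95 and 54.5, and wild-type mice 1, 2 and 3 had 61.7, 67.7 and 58.0. The highest value was 1.16-fold the lowest among *Ptpn6*+/mev mice and 1.17-fold among wild-type mice, and the groups overlapped. The log2 fold change was -0.17 (standard error 0.11), and it was -0.075 without wild-type replicate 2 and -0.24 without wild-type replicate 3.

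The metallothioneins bind zinc and copper and lie side by side on chromosome 8, *Mt2* from 94172664 to 94173568 and *Mt1* from 94179082 to 94180327. *Mt1* stood at 1740, 1443 and 2043 FPKM across *Ptpn6*+/mev mice 1, 2 and 3, and at 1538, 1812 and 1438 across wild-type mice 1, 2 and 3. *Mt2* stood at 253, 214 and 361 FPKM across *Ptpn6*+/mev mice 1, 2 and 3, and at 225, 252 and 232 across wild-type mice 1, 2 and 3. Both were highest in *Ptpn6*+/mev replicate 3, and in both *Ptpn6*+/mev replicate 2 was within or below the range of the wild-type mice. The log2 fold changes of 0.05 (standard error 0.16) for *Mt1* and 0.15 (standard error 0.18) for *Mt2* were smaller than their standard errors, and without *Ptpn6*+/mev replicate 3 they were -0.08 and -0.09. *Mt1* was 5.66 to 7.18 times as abundant as *Mt2* per length in the 6 libraries, with the lowest ratio in *Ptpn6*+/mev replicate 3. The annotation places an antisense gene over exons of *Mt2* and a divergent noncoding gene over exons of *Nr3c2*, and the kit named in the methods does not mark strand, so reads from those partners cannot be told apart from theirs.

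Over all 6 libraries the mean FPKM was 1669 for *Mt1*, 256 for *Mt2*, 62.8 for *Fkbp5*, 61.7 for *Sgk1*, 60.4 for *Hsd11b2*, 28.5 for *Tsc22d3*, 20.8 for *Klf9*, 14.1 for *Nr3c1*, 4.725 for *Zbtb16* and 2.57 for *Nr3c2*. In this order *Fkbp5*, *Sgk1* and *Hsd11b2* were not separated beyond their spread over the mice, and neither were *Tsc22d3* and *Klf9*, nor *Zbtb16* and *Nr3c2*. The other neighbours in the order did not overlap.

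Of the 10 genes, 8 had a positive and 2 a negative log2 fold change, with a median of 0.21 against -0.002 over all tested genes. None was called at a false discovery rate (FDR) under 0.05 by edgeR's quasi-likelihood test, which called 0.138% of all tested genes. *Zbtb16* alone was called by DESeq2 (2.97% of all tested genes), by edgeR's exact test (2.99%), and by the quasi-likelihood test without *Ptpn6*+/mev replicate 2 (0.0834%). Without wild-type replicate 2 that test called none of the 10, and 1.8% of all genes. In FPKM the groups did not overlap for *Tsc22d3* alone, against 20.4% of all tested genes, and in TMM-scaled CPM for *Zbtb16* alone, against 19.4%. Since the genes were chosen with this contrast known, nothing is read from these counts.

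**Figure D2:**
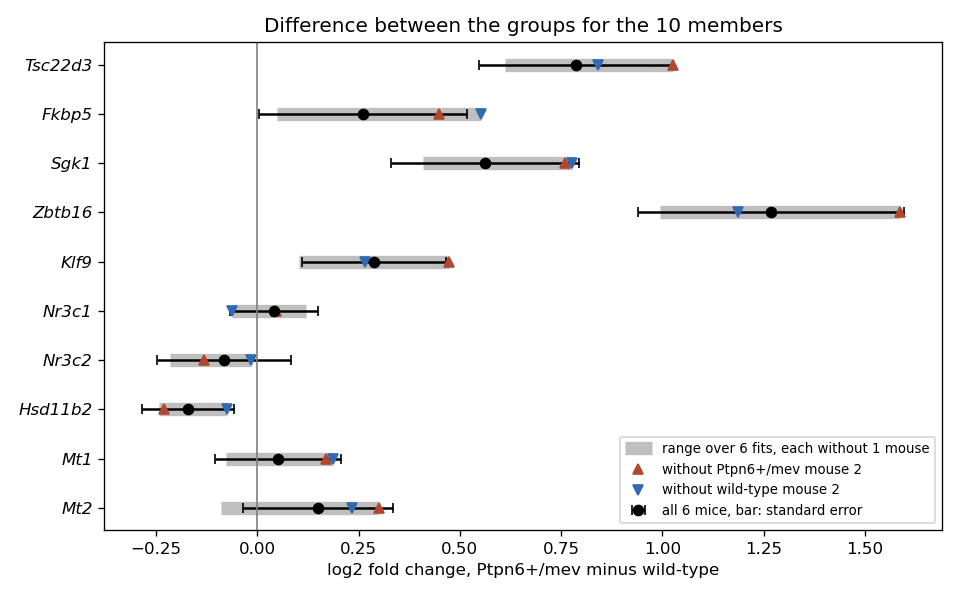
Log2 fold change of each gene, *Ptpn6*+/mev minus wild-type, from edgeR's quasi-likelihood fit to counts. Black points and bars give the value and standard error with all 6 mice, grey bands the range over the 6 fits that each left out 1 mouse, and triangles the fits without *Ptpn6*+/mev mouse 2 or wild-type mouse 2. *Zbtb16*, *Tsc22d3*, *Sgk1*, *Klf9* and *Fkbp5* stay above 0 in every fit shown, while the bands of *Nr3c1*, *Mt1* and *Mt2* cross 0.

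The split within the *Ptpn6*+/mev group rests on the same values that enter the fold changes, which were known when the genes were chosen. It is therefore given as a description, and nothing is read from its counts. Replicate 2 was the lowest of the 3 *Ptpn6*+/mev libraries in 7 of the 10 genes, against 32.5% of all tested genes. The exceptions were *Nr3c1*, *Nr3c2* and *Hsd11b2*, in which its FPKM was the highest. On TMM-scaled CPM the 3 libraries were nearly level for *Nr3c1*, at 64.1, 63.5 and 64.1, and replicate 2 was the lowest in 8 of the 10 genes, against 32.2% of all tested genes. In 5 of the 10 genes both other *Ptpn6*+/mev mice were at least 25% above replicate 2, a limit chosen after the values were seen, against 5.78% of the tested genes with a value in every library. The ratio of the highest to the lowest *Ptpn6*+/mev mouse had a median of 1.70 over the 10 genes and 1.22 over all tested genes. Among wild-type mice the medians were 1.37 and 1.33.

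Across the 6 libraries, log2 CPM of the targets varied together. This is a description over 6 mice that are the same for every pair of genes. Pearson's r was 0.94 between *Tsc22d3* and *Zbtb16*, 0.91 between *Zbtb16* and *Klf9*, and 0.89 between *Fkbp5* and *Sgk1*. With each group's mean removed these were 0.85, 0.97 and 0.93. The values for *Fkbp5* with *Zbtb16*, 0.58 and 0.51, were the lowest among the 5 targets. In wild-type replicate 2 *Fkbp5* was the highest of the wild-type mice and *Zbtb16* the lowest. *Mt1* and *Mt2* had r = 0.89. The targets were not alone in varying together. With each group's mean removed, *Mt1* had r of 0.80, 0.80 and 0.83 with *Tsc22d3*, *Fkbp5* and *Sgk1*. With *Zbtb16* and *Klf9* it had 0.47 and 0.45. *Nr3c1* had r = -0.55 with *Fkbp5* and -0.82 with *Hsd11b2*.

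The 5 tested genes most like *Fkbp5* by r of log2 CPM over the 6 libraries were *Zwint*, *Nrip3*, *Tmcc3*, *Lypd6b* and *Trappc6b*, with r from 0.987 to 0.991. Those most like *Klf9* were *Fbxo38*, *Srsf5*, *Prpf38b*, *Dock8* and *Vegfc*, with r from 0.980 to 0.991. Those most like *Mt1* were *Tspan12*, *Mt3*, *Cfap52*, *Nipal1* and *Krt80*, with r from 0.981 to 0.991. The likeness was measured on counts, and on log2(FPKM + 0.1) it was lost for *Nrip3*, with r = -0.11 to *Fkbp5*, and low for *Vegfc*, with r = 0.36 to *Klf9*, while the other 13 genes had r from 0.74 to 0.99. Among those most like *Mt1*, *Mt3* is itself a metallothionein, at an FPKM of 1.62 to 5.26. The highest r among 13036 genes over only 6 libraries is high by selection, so nothing is read from these values.

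Other genes induced by glucocorticoids were taken as a list of 22, of which 21 were tested. None was called by edgeR's quasi-likelihood test, 7 had an unadjusted p under 0.05, against 12.2% of all tested genes, and the 12 positive and 9 negative log2 fold changes had a median of 0.04. Leaving out *Ptpn6*+/mev replicate 1 turned this median to -0.07, and leaving out *Ptpn6*+/mev replicate 2 raised it to 0.15. *Anxa1*, which encodes the anti-inflammatory annexin A1, stood at 46.3, 61.8 and 62.3 FPKM across *Ptpn6*+/mev mice 1, 2 and 3, and at 30.8, 31.2 and 28.7 across wild-type mice 1, 2 and 3. Here *Ptpn6*+/mev replicate 2 was as high as replicate 3, unlike the 5 targets, and the groups did not overlap. The quasi-likelihood fit of edgeR gave it a log2 fold change of 0.84 (standard error 0.14) and an adjusted p of 0.0685, which ranged from 5.34e-05 to 0.369 over 15 alternative settings. DESeq2, which called 2.97% of all tested genes, called *Anxa1*, *Dusp1*, a MAP kinase phosphatase, and *Nfkbia*, the inhibitor of NF-κB, and edgeR's exact test, which called 2.99%, called *Anxa1* and *Dusp1*. *Lpin1*, a phosphatidate phosphatase of lipid synthesis, went the other way, with a log2 fold change of -0.63 (standard error 0.18) and groups that did not overlap, at 4.13 to 5.41 FPKM in *Ptpn6*+/mev and 5.89 to 7.52 FPKM in wild-type mice. In FPKM the groups did not overlap for 4 of the 21 genes, against 20.4% of all tested genes.

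*Dusp1* stood at 46.8, 26.6 and 46.9 FPKM across *Ptpn6*+/mev mice 1, 2 and 3, and at 19.9, 18.1 and 27.2 across wild-type mice 1, 2 and 3, so that *Ptpn6*+/mev replicate 2 was again the low one and lay below wild-type replicate 3. *Per1*, a clock gene with a glucocorticoid response element, had 19.6, 12.75 and 20.1 in the first group and 13.96, 12.8 and 12.2 in the second. This list was also chosen with earlier results known, so its counts of the split are description only. In the list as a whole *Ptpn6*+/mev replicate 2 was the lowest of its group in 16 of 21 genes, against 32.5% of all tested genes. Both other mice were at least 25% above it in 6 genes, *Cd163*, *Cebpb*, *Dusp1*, *Map3k6*, *Pdk4* and *Per1*, against 5.78% of the tested genes with a value in every library, and *Cd163* was at only 0.13 to 0.35 FPKM. *Errfi1* and *Glul*, the most abundant of the list at a mean FPKM of 156 and 151, had log2 fold changes of -0.14 (standard error 0.13) and 0.03 (standard error 0.15). *Pdk4*, a brake on glucose oxidation, had the most negative value, -0.72 (standard error 0.42), and was far highest in wild-type replicate 2, at 81.9 against 21.8 to 41.6 elsewhere.

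**Figure D3:**
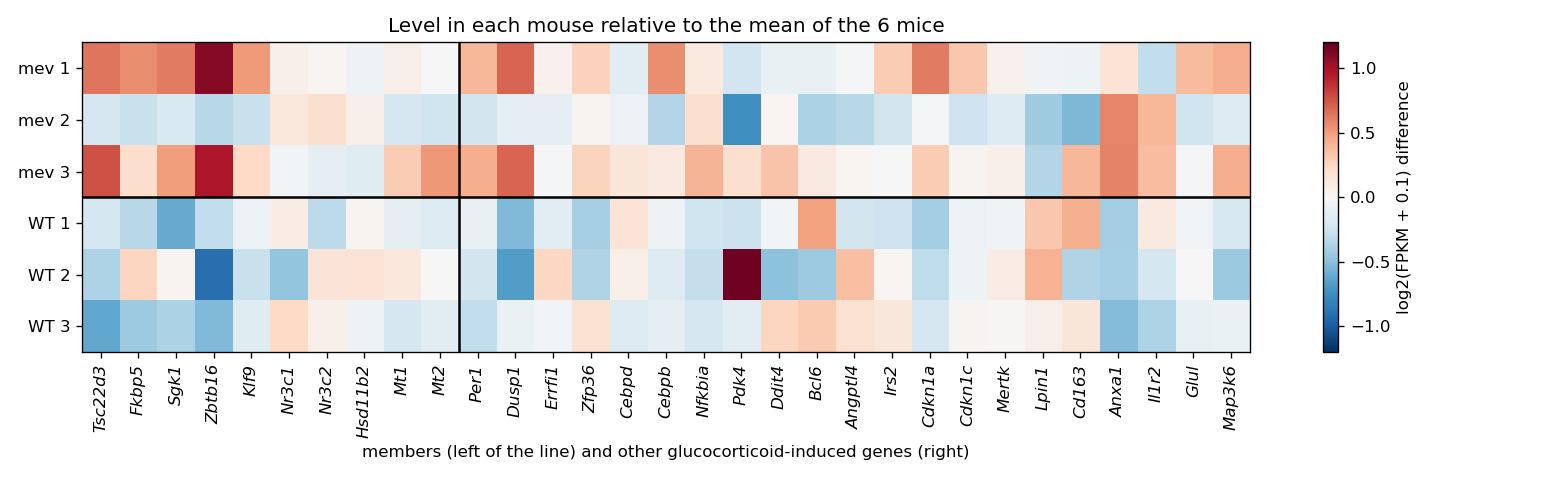
Level of the 10 genes and of 21 other glucocorticoid-induced genes in each mouse, as log2(FPKM + 0.1) minus the mean of the 6 mice (red higher, blue lower). The rows of *Ptpn6*+/mev mice 1 and 3 are red over *Tsc22d3*, *Fkbp5*, *Sgk1*, *Zbtb16*, *Klf9*, *Per1* and *Dusp1*, the row of mouse 2 is blue there, and *Pdk4* stands out in wild-type mouse 2.

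The sodium transport genes downstream of aldosterone were a list of 19, all tested, with 5 positive and 14 negative log2 fold changes and a median of -0.13. Without wild-type replicate 2 that median was 0.02. All 9 tested markers of distal tubule and principal cells were negative, with a median of -0.43, which was 0.004 without that library. Of these, 4 are in the sodium transport list as well, *Fxyd4*, *Scnn1b*, *Scnn1g* and *Slc12a3*. The other 5 had a median of -0.52 and none with an unadjusted p under 0.05, and their part in the result was not tested. None was called by edgeR's quasi-likelihood test, by its exact test or by DESeq2, and 4 had an unadjusted p under 0.05 (12.2% of all tested genes), among them *Scnn1b*, *Scnn1g* and *Slc12a3*. *Slc12a3*, the thiazide-sensitive cotransporter, stood at 120, 103 and 85.6 FPKM across *Ptpn6*+/mev mice 1, 2 and 3, and at 124, 132 and 142 across wild-type mice 1, 2 and 3. Its groups did not overlap, as for 5 of the 19 genes and 20.4% of all tested genes. For *Slc12a3* edgeR gave a log2 fold change of -0.43 (standard error 0.13) with an adjusted p of 0.234. *Atp1b1*, which encodes a beta subunit of the sodium pump, had a log2 fold change of -0.38 (standard error 0.17). *Edn1*, which encodes endothelin-1, had the largest positive value, 0.52 (standard error 0.25). *Kcnj1*, the ROMK potassium channel, depended on 1 library. Its FPKM was 50.02 in wild-type replicate 2 against 12.35 and 12.98 in the other wild-type mice, and without that library its log2 fold change turned from -0.13 (standard error 0.52) to 0.92 (standard error 0.10), and the edgeR adjusted p was 0.00367, the lowest of 15 alternatives that reached up to 0.991.

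The 14 receptor chaperones and 10 receptor coregulators were all tested and had median log2 fold changes of -0.009 and -0.006. None was called by edgeR's quasi-likelihood test, by its exact test or by DESeq2, and *Ep300* alone had an unadjusted p under 0.05 (12.2% of all tested genes). *Hsp90ab1*, the constitutive HSP90 that holds the receptors ready to bind hormone, had a log2 fold change of -0.04 (standard error 0.10), and *Fkbp4*, which competes with FKBP51 in that complex, 0.04 (standard error 0.13). The largest values were 0.09 (standard error 0.09) for *St13* and -0.08 (standard error 0.14) for *Stip1*. Among coregulators *Ncoa2* had 0.11 (standard error 0.13) and *Ep300* -0.22 (standard error 0.08), and the most abundant, *Ncor1* and *Carm1*, had -0.02 (standard error 0.12) and 0.02 (standard error 0.09).

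For the metabolism and transport of corticosteroids, 8 of 14 genes were tested, none was called by edgeR's quasi-likelihood test, and *Srd5a1* and *Abcb1a* had an unadjusted p under 0.05 (12.2% of all tested genes). *Srd5a1*, a 5α-reductase that inactivates corticosterone among other steroids, stood at 34.3, 40.2 and 35.6 FPKM across *Ptpn6*+/mev mice 1, 2 and 3, and at 21.8, 20.5 and 26.0 across wild-type mice 1, 2 and 3. Its groups did not overlap, as for 2 of the 8 tested genes and 20.4% of all tested genes. For *Srd5a1* edgeR gave a log2 fold change of 0.62 (standard error 0.11) with an adjusted p of 0.0794. It was called by DESeq2 (2.97% of all tested genes), by edgeR's exact test (2.99%), and by its quasi-likelihood test once wild-type replicate 2 was left out (1.8%), with adjusted p from 0.00056 to 0.369 over the 15 alternatives. *Hsd11b1* and its cofactor-supplying partner *H6pd*, which regenerate active corticosterone, had log2 fold changes of 0.14 (standard error 0.20) and -0.20 (standard error 0.11). *Abcb1a*, a drug and steroid efflux pump, had -0.37 (standard error 0.15). Among markers of the adrenal cortex, which lies next to the kidney, *Cyp11a1*, *Cyp11b2*, *Cyp21a1* and *Hsd3b1* were listed at 0 in all 6 libraries, and only *Star* exceeded an FPKM of 0.1.

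Of 15 genes of metal response and zinc transport, 13 were tested, none was called by edgeR's quasi-likelihood test, by its exact test or by DESeq2, and 3 had an unadjusted p under 0.05 (12.2% of all tested genes). Their log2 fold changes had a median of -0.04, and of 0.03 without wild-type replicate 2. *Slc39a5*, a zinc importer, had the most negative log2 fold change, -0.74 (standard error 0.22), with an FPKM of 4.79 to 7.61 in *Ptpn6*+/mev and 8.23 to 11.3 in wild-type mice. *Slc39a8* had the most positive, 0.32 (standard error 0.18), and the most abundant importers, *Slc39a1* and *Slc39a14*, had -0.08 (standard error 0.14) and -0.04 (standard error 0.13). *Mtf1*, the zinc-sensing transcription factor, had an FPKM of 3.99 to 5.47.

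**Figure D4:**
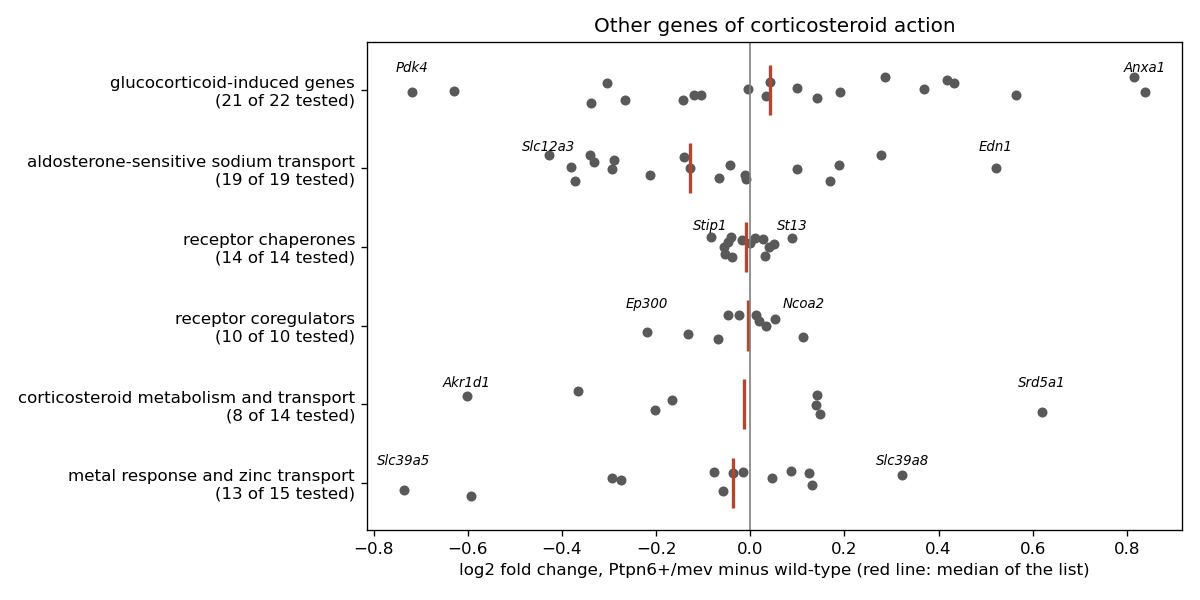
Log2 fold change of every tested gene of the 6 lists, *Ptpn6*+/mev minus wild-type, with a red line at each list's median. The medians lie between -0.13, for sodium transport, and 0.04, for glucocorticoid-induced genes, and the chaperones and coregulators cluster near 0.

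Markers of other cell types were set beside the pattern of the 5 targets. Summed FPKM over 10 distal tubule and principal cell markers was 445, 358 and 499 across *Ptpn6*+/mev mice 1, 2 and 3 and 422, 808 and 414 across wild-type mice 1, 2 and 3, so that *Ptpn6*+/mev replicate 2 was lowest and wild-type replicate 2 highest. Of the 9 tested markers in this list, 4 were lowest in replicate 2 among the *Ptpn6*+/mev mice, against 32.5% of all tested genes. *Aqp2* and *Aqp3* had that order with a gap of at least 25%, at 173, 122 and 228 for *Aqp2*. That gap was found in 5.78% of the tested genes with a value in every library. *Scnn1g* was at 12.55, 12.4 and 11.4, and in *Slc12a3*, *Calb1*, *Avpr2* and *Fxyd4* replicate 2 was not the lowest either. The part of these cells in the levels of *Sgk1* and *Fkbp5*, which were also highest of the wild-type mice in wild-type replicate 2, was not tested. Macrophage markers summed to 174, 277 and 277 in *Ptpn6*+/mev and 250, 113 and 207 in wild-type replicates 1 to 3. Without *Lyz2*, the most abundant of them, the other 6 summed to 101, 132 and 111 in *Ptpn6*+/mev and 120, 63.4 and 110 in wild-type mice, with *Ptpn6*+/mev replicate 2 the highest of its group. The 8 lymphocyte markers, none of which passed the filter on low counts, summed to 0.47 to 1.03 in *Ptpn6*+/mev and 0.66 to 3.07 in wild-type mice, and their part in the levels of *Tsc22d3* and *Zbtb16* was not tested. Tubular injury markers had no common direction, with 4 of 7 positive and a median log2 fold change of 0.08. *Havcr1*, which encodes KIM-1, had an FPKM of 1436 to 1565 in *Ptpn6*+/mev and 1087 to 1262 in wild-type mice, while *Spp1*, which encodes osteopontin and is by far the most abundant of the 7, had a log2 fold change of -0.38 (standard error 0.14). *Vcam1*, an adhesion molecule, had 1.05 (standard error 0.28). Its groups did not overlap, as for 2 of the 7 markers and 20.4% of all tested genes. DESeq2 (2.97% of all tested genes) and edgeR's exact test (2.99%) called *Vcam1*, and the quasi-likelihood test did not. The 8 proximal tubule markers summed to 491, 624 and 523 in *Ptpn6*+/mev and 856, 707 and 742 in wild-type mice. Of the 8, 7 had a negative log2 fold change, with a median of -0.44. The quasi-likelihood test called none of them with all 6 mice. Without wild-type replicate 2 it called *Cubn*, *Lrp2*, *Slc13a3* and *Slc22a6*, and 1.8% of all genes. DESeq2 (2.97% of all tested genes) and edgeR's exact test (2.99%) both called *Cubn*, *Slc13a3* and *Slc22a6*. The summed values did not overlap between the groups, and *Ptpn6*+/mev replicate 2 was the highest of its group and nearest to the wild-type mice. It was also the highest of its group in the summed neutrophil markers, at 24.7, 58.0 and 37.7 against 45.3, 26.3 and 40.0 in wild-type mice, and in the fibroblast markers, at 102, 141 and 110 against 172, 32.4 and 172. The part of these shifts in the levels of the 10 genes was not tested.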

How the data were processed

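Per the labels and the methods, the authors removed adaptor and low-quality sequence and aligned paired reads to GRCm38.p5, Ensembl release 90, with TopHat, and Cufflinks gave FPKM. The submitters' processing notes also name Bowtie2 and RSEM. The authors deposited an expected count and an FPKM value per gene and mouse, and the source of the counts is not given in the sources used here. Expected counts were rounded, since 1744 of 21367 genes had a fractional count, none of them among the 10 described.

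edgeR 4.0.16 in R 4.3.3 was run with TMM, filterByExpr and the quasi-likelihood test, with Benjamini-Hochberg adjustment over 13036 genes and an FDR threshold of 0.05. Correlations used log2 CPM, counts scaled to the library total, with a prior count of 2. Alternatives were 15: DESeq2 1.42.0, edgeR's exact test, DESeq2 size factors, upper quartile scaling, limma 3.58.1 on log2(FPKM + 1) and log2(FPKM + 0.1), no filter, at least 10 counts in every library, a replicate block, and each library left out. Of the tests, the quasi-likelihood test alone was tested on simulated data. Positions are from GENCODE M21 (GRCm38).

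The 10 genes and the lists were chosen with earlier results of these data known. Named genes are the 10, *Ptpn6*, and from each of the 6 lists the called genes, the 2 most abundant, and the largest rise and fall in log2 fold change where a group mean reached an FPKM of 1. The 5 genes with the highest Pearson r to each of *Fkbp5*, *Klf9* and *Mt1* were added. *Dusp1*, *Per1*, *Nfkbia*, *Kcnj1*, *Lpin1*, *Mt3*, *Mtf1*, *Aqp2* and the others named beside counts were chosen after their values were seen. Libraries of a group are separate mice, and pairs of them differed by 6.49 to 45.4 times the sampling noise (chi-square per degree of freedom). A gene that this rule names in the sodium transport list is not reported here.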

Additional observations from a re-analysis of the deposited data

How the results depend on the processing

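The log2 fold changes of the 10 genes moved by less than 1 SD between mice under all 15 alternatives. *Tsc22d3*, *Fkbp5*, *Sgk1*, *Zbtb16*, *Klf9* and *Hsd11b2* kept their sign in all 15. The sign changed in 2 of 15 for *Mt1* and *Nr3c2* and in 1 of 15 for *Mt2* and *Nr3c1*. The number of genes called, 18, was 390 in edgeR's exact test, 387 in DESeq2 and 52 without a filter on low counts. Of those called, 9 of 18 were higher in *Ptpn6*+/mev, against 142 of 387 in DESeq2, 158 of 390 in the exact test and 14 of 22 in limma on log2(FPKM + 1). Leaving out 1 library gave between 1, without *Ptpn6*+/mev replicate 3, and 237, without wild-type replicate 2. It was 67 without wild-type replicate 3 and 4, 11 and 10 without *Ptpn6*+/mev replicates 1 and 2 and wild-type replicate 1. With a replicate block it was 1. Same-numbered libraries deviated from their group means with r of -0.14, -0.18 and -0.13. With so few libraries these values cannot settle whether the numbers pair the mice, and the labels do not say. In the glucocorticoid-induced list, where 0 were called, DESeq2 called 3, the exact test 2 and the fit without a filter 1. Single libraries left out gave 0 to 1 called gene in that list, in sodium transport and in corticosteroid metabolism, where the 1 came without wild-type replicate 2 (*Anxa1*, *Kcnj1* and *Srd5a1*). In corticosteroid metabolism DESeq2 and the exact test also called 1. Over the 15 alternatives the adjusted p ranged from 5.34e-05 to 0.369 for *Anxa1*, 0.00056 to 0.369 for *Srd5a1* and 0.00367 to 0.991 for *Kcnj1*. *Nr3c2* and *Zbtb16* had the lowest counts of the 10 genes, down to 123 and 113 in single libraries.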
